A study of Mus musculus with 6 samples.

Results

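The NMDA receptor subunit genes were examined in hippocampus from male Phf8 KO mice and their wild-type (WT) littermates. The family has 7 genes, Grin1, Grin2a, Grin2b, Grin2c, Grin2d, Grin3a and Grin3b, among the 18193 genes that the array's gene table names with a single symbol. That table gives 12 of the 45037 probe sets to 6 of these genes. It names none for Grin1, whose level was not analysed here. A probe set is a group of short probes that reads 1 stretch of a transcript, and all probe sets that carry a family symbol alone were taken.

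RNA of hippocampus from 3 Phf8 Knockout and 3 Wild Type samples was hybridized to Affymetrix mouse arrays, with 1 array per sample. All samples are labelled as C57BL/6 hippocampus at an age of 10 weeks. The KO allele lacks the exons that encode the core of the JmjC demethylase domain of PHF8. The floxed allele was made in another strain, deleted with EIIa-Cre, which acts in the early embryo and is not limited to a cell type, and backcrossed to C57BL/6 J. Whether an array holds the tissue of 1 mouse or of several pooled mice is not clear from the study's methods, and p-values measure only the spread between these samples.

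NMDA receptors are glutamate-gated cation channels that combine the obligatory GluN1 subunit with GluN2 or GluN3 subunits. GluN2 subunits bind glutamate, while GluN1 and GluN3 subunits bind glycine or D-serine. GluN2A and GluN2B, encoded by Grin2a and Grin2b, are the main GluN2 subunits of forebrain principal neurons, and calcium entry through these receptors starts long-term potentiation at the Schaffer collateral synapse. GluN2C is known from the cerebellum, thalamus and astrocytes, GluN2D from the diencephalon and interneurons, and GluN3A lowers calcium permeability and is best known from young, immature synapses.

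The targeted gene was lower in each KO array, with a log2 signal of 7.99 to 8.55 on KO arrays and 9.66 to 9.90 on WT arrays for the bright Phf8 probe set. The array of KO replicate 3 stood apart, since it correlated with the other arrays at 0.925 to 0.940 across genes, whereas those 5 correlated at 0.976 to 0.987 with one another. There the 11 measured thalamus markers had a median of 2.73 relative to the mean of the WT arrays, while the median was 0.19 on KO replicate 1 and 0.12 on KO replicate 2. Their summed signal was 7384 to 38710 on KO arrays and 5706 to 6308 on WT arrays. The 9 dentate granule cell markers, all lower in KO on average, summed to 9564 to 13120 on KO arrays and 13530 to 16830 on WT arrays. The 7 markers of neurons in general summed to 77250 to 77960 on KO arrays and 80160 to 87650 on WT arrays, but 2 of these 7 were higher in KO on average. Their medians overlapped between the genotypes, at -0.109, -0.101 and -0.184 on the KO arrays and -0.103 on WT replicate 2. In bulk tissue, fewer cells of a type and less RNA per cell cannot be told apart. Values without KO replicate 3 are given for the measured subunit genes and for some of the pairs and other genes.

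Signals are log2 values of the MAS5 algorithm, which summarizes the probes of a set, and a difference of 1 is a doubling. Probes bind with different strength, so a level was compared only with the same probe set on other arrays. Probe sets were kept when 3 or more of the 6 arrays had them above that array's 40th percentile. This held for 9 of the 12 probe sets, and 5 genes were measured, each by its brightest one. Grin3b, of which the only probe set was dim, was not among them.

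With limma and a threshold of 0.05 on the adjusted p, none of the 5 genes passed, whereas 8 of 12903 genes (0.062%) did. Grin3a had the smallest p of the 5 and was higher on every KO array, while Grin2a had the larger mean difference. Grin2a and the brightest Grin2b probe set were lower on every KO array, with most of the difference on KO replicate 3. Of the 3 kept Grin2b probe sets, only 1 separated the genotypes. Grin2c and Grin2d overlapped between the genotypes. An unadjusted p under 0.05 was seen for 1 of the 5 genes, Grin3a, and for 7.48% of all genes. KO arrays lay above WT arrays without overlap for 1 of 5 genes against 9.56% of all genes, and below them for 2 of 5 against 7.13%. Of the 9 kept probe sets, 0 passed in limma over 27408 probe sets (0.0219% passed), 2 had an unadjusted p under 0.05 (6.18% of all), 2 lay above WT without overlap (7.37% of all) and 2 lay below (7.83% of all). With so few members, these shares describe the family and are no test of it.

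**Figure D1:**
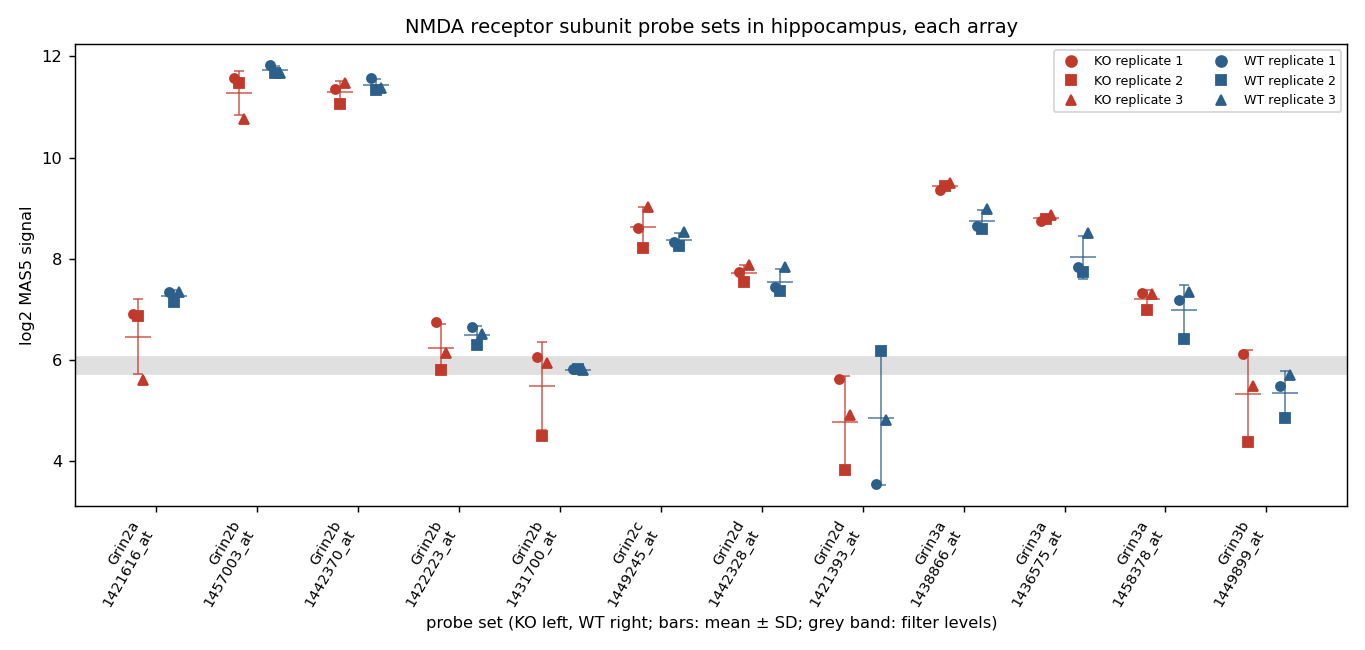
Log2 MAS5 signal (y axis) of the 12 NMDA receptor subunit probe sets (x axis) on each array, with KO to the left and WT to the right. Bars give each group's mean and SD, and grey shading marks the range of filter levels, 5.73 to 6.05. The 2 bright Grin3a probe sets are the ones where all KO points lie above all WT points.

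Grin3a, the gene of the glycine-binding GluN3A subunit, was higher on average in KO hippocampus on all 3 of its probe sets, the dimmest of which kept this direction only with WT replicate 2 included. The brightest one, 1438866_at, had log2 signals of 9.36, 9.44 and 9.49 on the KO arrays and 8.64, 8.60 and 8.99 on the WT arrays. The groups did not overlap, the KO arrays were close together, and WT replicate 3 was the WT array nearest to them. The means were 9.43 ± 0.07 in KO and 8.74 ± 0.21 in WT (SD, n = 3 each). The difference was 0.69 (SE 0.15, 95% interval 0.35 to 1.03), or a fold of 1.61, with an unadjusted p = 0.00192 and an adjusted p = 0.425 in limma over genes. At least 1.5-fold higher were 4.15% of all genes.

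The second Grin3a probe set, 1436575_at, separated the genotypes too. Its log2 signals were 8.75, 8.79 and 8.87 on the KO arrays and 7.84, 7.73 and 8.52 on the WT arrays, again without overlap and with WT replicate 3 nearest to KO. The difference was 0.77 (SE 0.23, 95% interval 0.24 to 1.30, unadjusted p = 0.0107, adjusted p = 0.773 in limma over probe sets). The third and dimmest, 1458378_at, had log2 signals of 7.33, 6.995 and 7.30 on the KO arrays and 7.18, 6.41 and 7.35 on the WT arrays. These groups overlapped, with WT replicate 3 as the highest array of all, and the difference of 0.23 (SE 0.29, 95% interval -0.45 to 0.90) was smaller than the spread between WT arrays (SD 0.50). Without WT replicate 2 it was -0.06. These probe sets read 1 gene on the same arrays and are not independent of each other.

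The Grin3a difference was nearly as large without the KO array that stood apart. Without KO replicate 3 it was 0.66 on the brightest probe set and 0.74 on the second. WT replicate 3 weighed more, and without it the differences were 0.81 and 1.02. With array weights by the gene-by-gene method of limma, which gave KO replicate 3 the lowest weight (0.14, against 0.54 to 2.45 for the other arrays), Grin3a had a difference of 0.67 and passed (adjusted p = 0.0468). In the other settings its adjusted p was between 0.109 and 0.988. GluN3A is found in interneurons that express somatostatin, and the 9 measured interneuron markers summed to 29240 to 33130 on KO arrays and 26900 to 30460 on WT arrays. Of these 9, 5 were higher in KO on average and none passed in limma. Their median relative to the WT mean was 0.05, 0.06 and -0.24 on KO replicates 1, 2 and 3. Vip and Pvalb were lowest on KO replicate 3, with log2 signals of 8.74 and 9.94. Slc32a1, the vesicular GABA transporter gene, had log2 signals of 10.10, 10.02 and 11.78 on the KO arrays and 9.77, 9.82 and 9.98 on the WT arrays, without overlap and highest on KO replicate 3. Sst, the somatostatin gene, had log2 signals of 12.29, 12.18 and 12.02 on the KO arrays and 12.32, 12.21 and 12.34 on the WT arrays, and the groups overlapped. The summed level of the 4 erythrocyte markers separated the genotypes on every array, as Grin3a did, with medians of -3.38, -3.95 and -3.55 relative to the WT mean on the KO arrays and sums of 119.9 to 233.7 on KO arrays and 1825 to 2076 on WT arrays. All 4 were lower in KO on average and 2 of them, Alas2 and Hbb-b2, passed in limma. Sums of the thalamus markers separated the genotypes too, at 7384 to 38710 on KO arrays and 5706 to 6308 on WT arrays. All 11 were higher in KO on average and none passed in limma. Their medians overlapped, with 0.12 on KO replicate 2 and 0.13 on WT replicate 3. The summed dentate granule cell markers and the summed markers of neurons in general were lower on each KO array than on any WT array. The part of all these markers in the Grin3a difference was not tested.

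Grin2a encodes GluN2A, the GluN2 subunit that gains ground as synapses mature. Its only probe set, 1421616_at, had log2 signals of 6.91, 6.87 and 5.60 on the KO arrays and 7.34, 7.14 and 7.34 on the WT arrays. Each KO array lay below each WT array, but KO replicate 3 was far below the other KO arrays and under the filter level of its own array, 6.04. The means were 6.46 ± 0.74 in KO and 7.28 ± 0.12 in WT (SD, n = 3 each). The difference was -0.82 (SE 0.37, 95% interval -1.67 to 0.04, unadjusted p = 0.0597, adjusted p = 0.664 in limma). The KO level was thus 0.568 times the WT level, while 2.03% of all genes were at least 1.5-fold lower. Without KO replicate 3 the difference was -0.39 (SE 0.19, adjusted p = 0.405 in limma), which is under 1.5-fold. The signal is low, and with an offset before log2 the difference was -0.70.

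Grin2b encodes GluN2B, whose cytoplasmic tail binds CaMKII, and it was measured by 4 probe sets. The brightest, 1457003_at, had log2 signals of 11.57, 11.48 and 10.77 on the KO arrays and 11.83, 11.67 and 11.67 on the WT arrays. The groups did not overlap, and KO replicate 3 was again the lowest array by far. The means were 11.27 ± 0.44 in KO and 11.72 ± 0.09 in WT (SD, n = 3 each), and the difference was -0.45 (SE 0.21, 95% interval -0.93 to 0.04, unadjusted p = 0.0649, adjusted p = 0.669 in limma). Without KO replicate 3 it was -0.20 (SE 0.08, adjusted p = 0.329 in limma), and in the mean of the kept Grin2b probe sets -0.28 (adjusted p = 0.722).

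The next Grin2b probe set was nearly as bright and did not show that fall on KO replicate 3. On 1442370_at the log2 signals were 11.35, 11.06 and 11.48 on the KO arrays and 11.57, 11.34 and 11.37 on the WT arrays. The groups overlapped, and KO replicate 3 was the highest KO array here, whereas it was the lowest on 1457003_at. The difference was -0.13 (SE 0.14, 95% interval -0.45 to 0.19, adjusted p = 0.838 in limma over probe sets). Where both probe sets lie along the Grin2b transcripts was not analysed here. The other Grin2b probe sets were dim. The kept one, 1422223_at, had log2 signals of 6.75, 5.81 and 6.14 on the KO arrays and 6.65, 6.30 and 6.51 on the WT arrays, and the groups overlapped. The one below the filter, 1431700_at, had 6.05, 4.49 and 5.94 on the KO arrays and 5.82, 5.82 and 5.80 on the WT arrays. All 4 Grin2b probe sets had a lower mean in KO, and 1 of the 3 kept ones had no overlap.

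Grin2a and the Grin2b probe set 1457003_at, but not 1442370_at, were lowest on the array that stood apart. On KO replicate 3 the thalamus markers were highest, and the dentate granule cell markers were lowest, with a median of -0.69, where KO replicate 1 had -0.24 and KO replicate 2 had -0.38. The 6 measured CA1 pyramidal cell markers had a median of -0.28 there, with 0.06 and 0.08 on the other KO arrays. The 7 CA3 pyramidal cell markers had a median of 0.06 on KO replicate 3, but they were split. Nectin3, Iyd and Homer3 lay below all WT arrays there, and Bok, Spock1 and Grik4 above them. The CA3 markers summed to 5600 to 6124 on KO arrays and 5544 to 5680 on WT arrays. The medians on KO replicate 3 were -1.82 for the 6 choroid plexus markers and 0.50 for the 7 measured oligodendrocyte lineage markers. The choroid plexus markers varied widely on the other arrays too. Their median was 1.32 on KO replicate 1, 0.12 on KO replicate 2 and -1.03 to 0.96 on the WT arrays. The CA1 markers summed to 9108 to 13420 on KO arrays and 11240 to 11900 on WT arrays, and 3 of the 6 were higher in KO on average. The part of these markers in the Grin2a and Grin2b values was not tested.

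**Figure D2:**
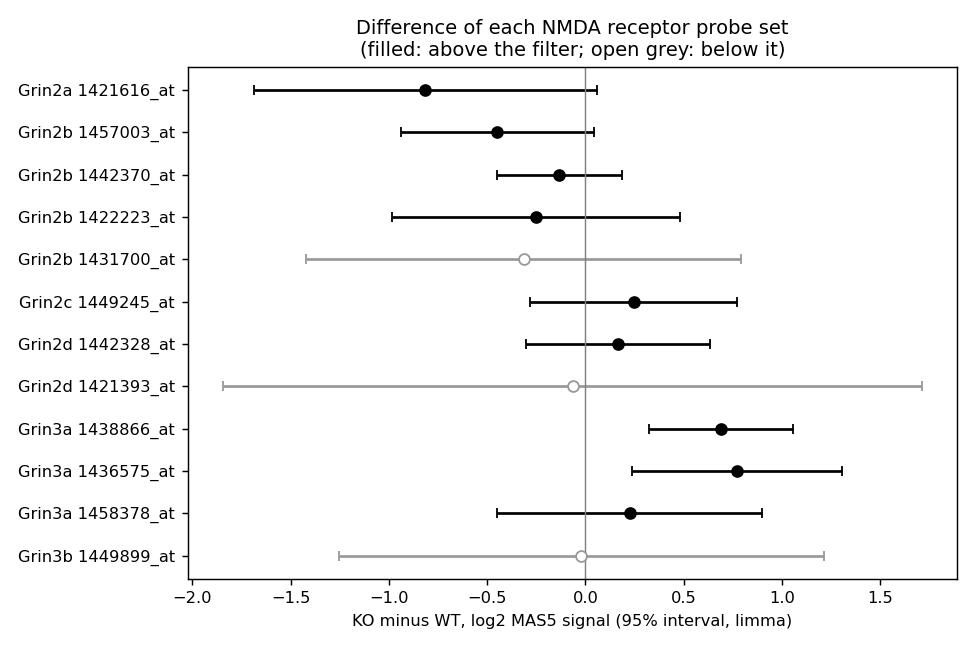
KO minus WT difference in log2 MAS5 signal (x axis) of each NMDA receptor subunit probe set (y axis), with its 95% interval from limma. Open grey points lie below the filter and come from a fit without it. The intervals of the 2 bright Grin3a probe sets, 0.33 to 1.05 and 0.24 to 1.30, lie above 0, and all others include 0.

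Grin2c, the gene of GluN2C, did not differ beyond the spread between arrays. Its probe set 1449245_at had log2 signals of 8.61, 8.22 and 9.03 on the KO arrays and 8.33, 8.26 and 8.53 on the WT arrays. KO replicate 2 was the lowest array of all and KO replicate 3 the highest. The difference was 0.25 (SE 0.22, 95% interval -0.26 to 0.75, adjusted p = 0.769 in limma). Without KO replicate 3, the array with the high thalamus markers, it was 0.04, and without KO replicate 2 it was 0.45 (adjusted p = 0.39 in limma). Astrocytes are another known source of GluN2C, and the 8 astrocyte markers summed to 52980 to 59270 on KO arrays and 53410 to 54540 on WT arrays, with 4 of the 8 higher in KO on average. The part of both lists in the Grin2c values was not tested.

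Grin2d, the gene of GluN2D, overlapped between the genotypes as well. Its brighter probe set, 1442328_at, had log2 signals of 7.74, 7.54 and 7.87 on the KO arrays and 7.44, 7.37 and 7.84 on the WT arrays. KO replicate 3 and WT replicate 3 were the 2 highest arrays. The difference was 0.17 (SE 0.19, 95% interval -0.29 to 0.62, adjusted p = 0.824 in limma). It was 0.09 without KO replicate 3, 0.25 without KO replicate 2, 0.07 without WT replicate 2 and 0.31 without WT replicate 3. The other probe set, 1421393_at, lay below the filter and spread over 3.83 to 5.62 on KO arrays and 3.55 to 6.19 on WT arrays, too widely for a difference to be read from it.

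Grin3b encodes GluN3B, known mainly from motor neurons. Its only probe set, 1449899_at, had log2 signals of 6.12, 4.38 and 5.48 on the KO arrays and 5.49, 4.86 and 5.70 on the WT arrays. It exceeded the filter level on 1 of the 6 arrays. In a limma fit without the filter the difference was -0.02 (SE 0.53, 95% interval -1.26 to 1.21), an interval that leaves room for changes in either direction.

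**Figure D3:**
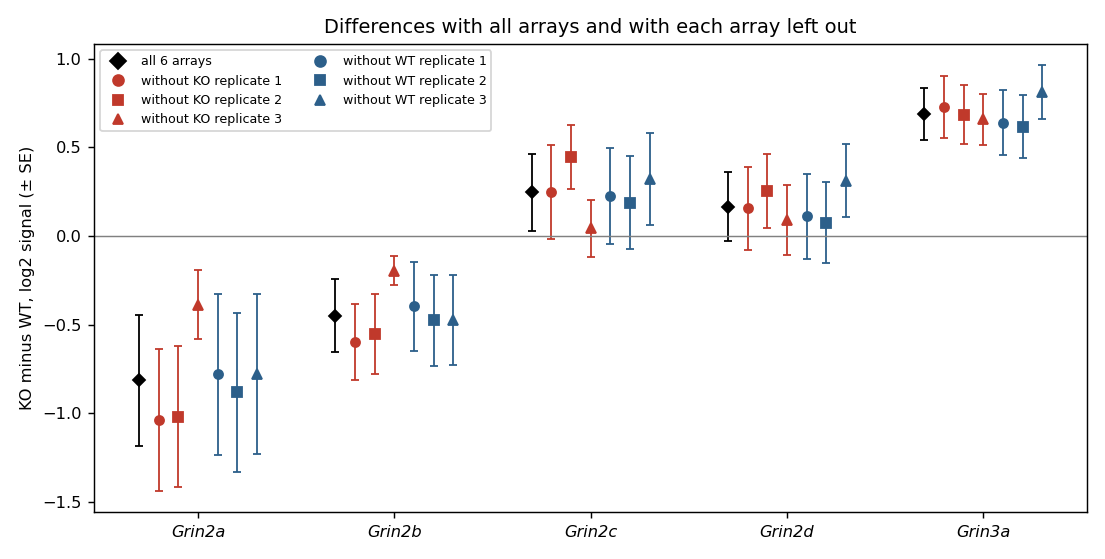
KO minus WT difference in log2 signal with its SE (y axis, limma) of the 5 measured genes (x axis), with all 6 arrays (black) and with each array left out. Without KO replicate 3 the points of Grin2a and Grin2b move to -0.39 and -0.20, and that of Grin2c to 0.04, while Grin3a stays between 0.62 and 0.81 in all of them.

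The balance between subunits was then compared between the genotypes, as the difference of log2 signals of 2 subunit genes on the same array. Such a value has no meaning by itself, because it also holds the unequal strength of the probes. Its shift between arrays shows that the 2 signals changed unequally, which need not mean that the 2 genes did. Probe sets of 1 gene can shift apart as well. The 2 bright Grin2b probe sets correlated at -0.04 over the 6 arrays and at 0.94 without KO replicate 3. All 10 pairs of the 5 measured genes were tested with a two-sided exact permutation test, which with 3 against 3 samples cannot go below p = 0.1. The groups did not overlap for 7 pairs, and each of these had an exact p = 0.1 (adjusted exact p = 0.143 over the 10 pairs), so none can pass. The pairs share genes and are not independent. Grin3a minus Grin2a and Grin3a minus Grin2b had to separate, since the single genes already did so in opposite directions. The share of pairs without overlap among all gene pairs was not computed.

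The GluN3A gene was shifted upward relative to each of the other 4 genes on average, least firmly relative to Grin2c. Grin3a minus Grin2b was -2.21, -2.04 and -1.27 on the KO arrays and -3.18, -3.07 and -2.69 on the WT arrays. All KO arrays lay above all WT arrays, by 1.14 on average, and by 0.86 without KO replicate 3. With the other bright Grin2b probe set, 1442370_at, the shift was 0.82 and the groups still did not overlap. Grin3a minus Grin2a was 2.45, 2.57 and 3.89 on the KO arrays and 1.30, 1.46 and 1.64 on the WT arrays. This shift of 1.505 was the largest of the 10, and it was 1.05 without KO replicate 3. Grin3a minus Grin2d was 1.62, 1.90 and 1.62 on the KO arrays and 1.20, 1.23 and 1.15 on the WT arrays, a shift of 0.52 with little spread in either group. Grin3a minus Grin2c was 0.75, 1.22 and 0.47 on the KO arrays and 0.31, 0.34 and 0.46 on the WT arrays. Here the shift was 0.44, and KO replicate 3 only just exceeded WT replicate 3. It was 0.24 without KO replicate 2, and with the mean of kept probe sets it was 0.32 and the groups overlapped (exact p = 0.3).

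The balance of GluN2A to GluN2B transcripts, known to rise as forebrain synapses mature, showed a smaller shift. Grin2a minus Grin2b was -4.67, -4.61 and -5.16 on the KO arrays and -4.48, -4.53 and -4.33 on the WT arrays. The KO arrays lay below the WT arrays, with KO replicate 2 and WT replicate 2 only a little apart. The means were -4.81 ± 0.30 in KO and -4.45 ± 0.11 in WT (SD, n = 3 each), a shift of -0.37. It was -0.19 without KO replicate 3. With 1442370_at in place of the brightest Grin2b probe set it was -0.68, but then the groups overlapped (exact p = 0.3). They also overlapped after quantile normalization (-0.38, exact p = 0.3) and with the mean of kept probe sets (-0.54, exact p = 0.3).

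Among the remaining pairs, Grin2a was shifted downward relative to Grin2c (-1.06) and relative to Grin2d (-0.98), without overlap. Without KO replicate 3 these shifts were -0.43 and -0.48. Grin2b relative to Grin2c and to Grin2d overlapped between the genotypes, with shifts of -0.70 and -0.62 (exact p = 0.2 and exact p = 0.3), or -0.24 and -0.29 without KO replicate 3. Grin2c relative to Grin2d was nearly alike in both, with a shift of 0.08 (exact p = 0.9) that was -0.046 without KO replicate 3.

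**Figure D4:**
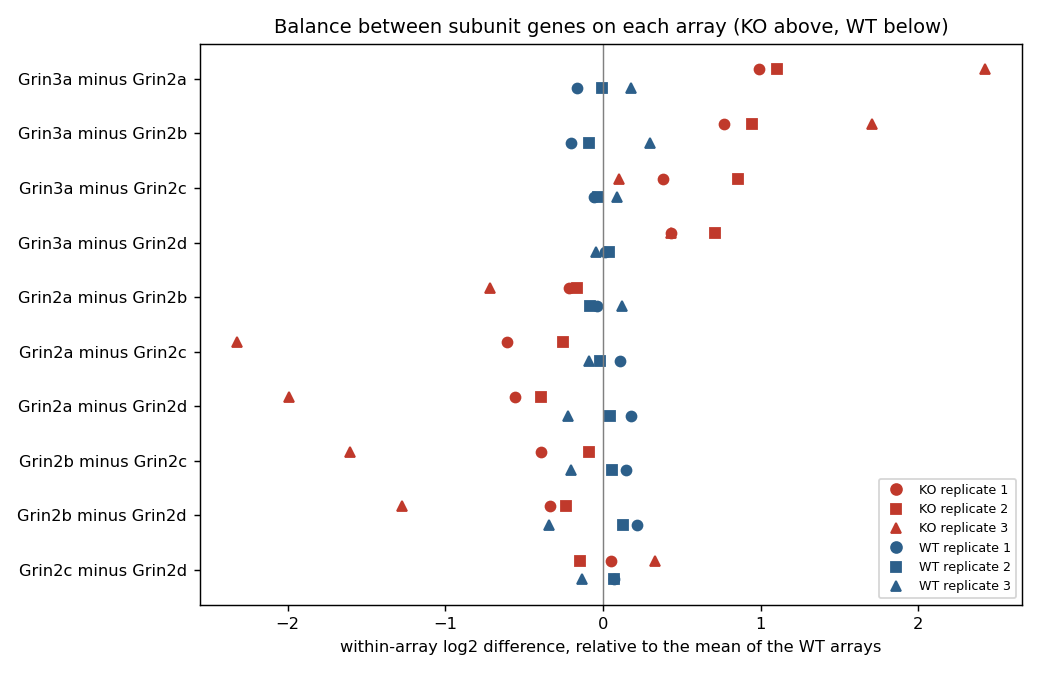
Within-array log2 difference of each pair of subunit genes (y axis) on each array, with the WT mean set to 0 (x axis), with KO points above and WT points below in each row. In the 4 pairs with Grin3a the KO points lie to the right of the WT points, with mean shifts of 0.44 to 1.505.

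The genes whose pattern over arrays was most like that of the 2 lower subunits were then listed as a description. Over the 6 arrays and 12902 other genes, Grin2a was most like Zdhhc20, a protein acyltransferase gene (Pearson r = 0.998), and Trim9, a neuronal ubiquitin ligase gene (r = 0.997). Grin2b was most like Morf4l2, a chromatin-associated gene (r = 0.997), and Ttr, the transthyretin gene of the choroid plexus (r = 0.997). All 4 were lowest on KO replicate 3, and without it the values were 0.979, 0.972, 0.985 and 0.966. For Grin2a, 427 genes had an r above 0.95, and for Grin2b 381, so 6 arrays do not single out a few genes.

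Genes around the NMDA receptor were examined in 6 further lists with 86 genes. The lists cover co-agonist supply, trafficking, kinases and phosphatases, downstream partners, transcription factors of Grin genes and glutamate uptake. Of these, 77 were measured, 32 were higher and 45 lower on average, and 1 passed in limma over all genes, which was lower. The median difference was -0.06, against 0.01 over all genes. KO arrays lay above WT arrays without overlap for 8 of the 77 (9.56% of all genes) and below them for 9 (7.13% of all genes), and 12 had an unadjusted p under 0.05 (7.48% of all genes).

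Among kinases and phosphatases that act on the receptor, Ptpn5 had the smallest p. Ptpn5 encodes STEP, the striatal-enriched tyrosine phosphatase that acts on GluN2B and on the kinase Fyn and promotes receptor internalization. It had log2 signals of 9.77, 10.13 and 10.39 on the KO arrays and 9.29, 9.24 and 9.36 on the WT arrays. All KO arrays lay above the narrow range of the WT arrays. The difference was 0.80 (SE 0.17, 95% interval 0.40 to 1.20, unadjusted p = 0.00188, adjusted p = 0.425 in limma), and 0.66 without KO replicate 3. In the mean of its kept probe sets it was 0.50 (adjusted p = 0.716 in limma). Camk2a, the gene of the kinase subunit CaMKIIα, had log2 signals of 13.45, 13.33 and 13.13 on the KO arrays and 13.63, 13.60 and 13.55 on the WT arrays, lower on each KO array, with a difference of -0.29 that was -0.48 in the mean of its kept probe sets (adjusted p = 0.723 in limma). Of the 21 measured genes of this list, 10 were higher and 11 lower, with a median difference of -0.06, and none passed.

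Among partners downstream of the receptor, 2 of 10 measured genes were higher and 8 lower, with a median difference of -0.17. Homer1, a postsynaptic scaffold gene, was the one that passed, with log2 signals of 11.34, 11.45 and 11.01 on the KO arrays and 12.41, 12.48 and 12.61 on the WT arrays. It fell by 1.23 (SE 0.13, adjusted p = 0.0366 in limma). The difference was -1.11 and passed without KO replicate 3 (adjusted p = 0.000924), but not with any other array left out (adjusted p = 0.0777 to 0.401 in limma), and the mean over its kept probe sets was lower by less (-0.57, adjusted p = 0.714). Rasgrf1, a calcium-dependent exchange factor for Ras, had log2 signals of 13.15, 13.16 and 13.11 on the KO arrays and 13.32, 13.32 and 13.27 on the WT arrays, a small difference (-0.16, adjusted p = 0.638 in limma) without overlap, which was -0.25 in the mean of its kept probe sets.

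Trafficking and anchoring genes were lower for 11 of 16 measured and higher for 5, with a median difference of -0.07, and none passed. Nefl, the neurofilament light chain gene, whose protein binds GluN1, had log2 signals of 13.38, 13.47 and 13.32 on the KO arrays and 13.66, 13.57 and 13.57 on the WT arrays. Lin7a, an adaptor gene of receptor transport, had 11.10, 11.22 and 11.93 on the KO arrays and 10.91, 10.94 and 10.88 on the WT arrays. Neither overlapped between the genotypes, and the Lin7a difference of 0.51 was 0.25 without KO replicate 3.

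Genes that supply the co-agonists D-serine and glycine were higher for 8 of 12 measured and lower for 4, with a median difference of 0.16, and none passed. Slc7a10, the Asc-1 transporter that carries D-serine, had log2 signals of 9.72, 9.33 and 9.63 on the KO arrays and 9.13, 9.34 and 9.15 on the WT arrays. Psat1, an enzyme of serine synthesis, had 10.86, 11.03 and 11.33 on the KO arrays and 11.43, 11.52 and 11.27 on the WT arrays. In both genes 1 array crossed over, KO replicate 2 for Slc7a10 and KO replicate 3 for Psat1. The Psat1 difference of -0.33 was -0.46 without KO replicate 3 and -0.06 in the mean of its kept probe sets (adjusted p = 0.939 in limma). With gene-by-gene array weights it was -0.50 (adjusted p = 0.0466 in limma).

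Of 12 transcription factor genes described as regulators of Grin genes, 4 were higher and 8 lower, with a median difference of -0.11, and none passed. Rest encodes the repressor of neuronal genes that binds a site in the Grin1 gene. It had log2 signals of 7.83, 7.83 and 7.47 on the KO arrays and 7.29, 7.18 and 7.34 on the WT arrays, without overlap, and a difference of 0.44 (unadjusted p = 0.0413, adjusted p = 0.659 in limma). Sp1, a general transcription factor gene, had 9.79, 9.76 and 9.73 on the KO arrays and 9.54, 9.61 and 9.55 on the WT arrays, also without overlap. Of 6 genes of glutamate and glutamine transport and conversion, 3 were higher and 3 lower. The glutamine transporter genes Slc38a1 and Slc38a3 were higher on each KO array, with differences of 0.40 and 0.46 (adjusted p = 0.638 and 0.659 in limma), which were 0.23 and 0.36 without KO replicate 3.

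**Figure D5:**
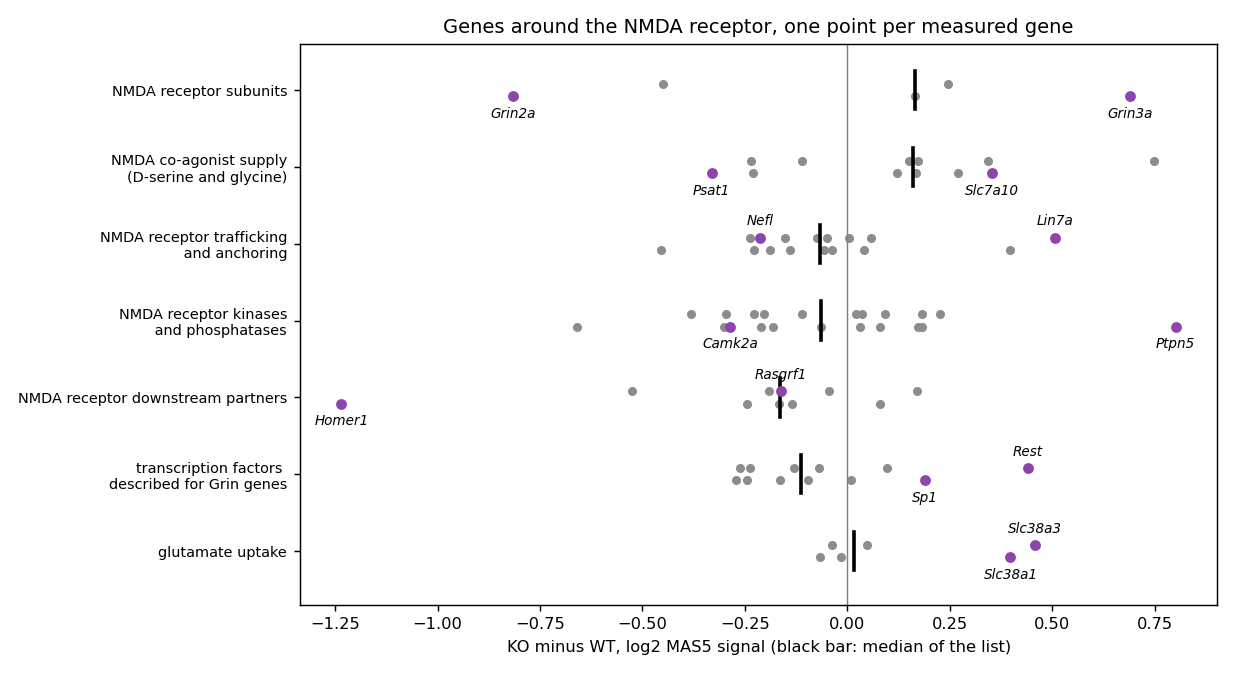
KO minus WT difference in log2 MAS5 signal (x axis) of each measured gene of the subunit list and 6 lists around the NMDA receptor (y axis), with the median of each list as a black bar and the 2 genes with the smallest p of each list in purple. Homer1 at -1.23 is the only gene shown that passed in limma, and Ptpn5 at 0.80 and Grin3a at 0.69 are among the highest points.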

How the data were processed

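The authors deposited log2 MAS5 signals of 45037 probe sets on 6 arrays. MAS5 and affy are named in the submitters' processing notes without versions, and GeneSpring and a filter on Absent calls in the methods. Absent calls were not used here, and the percentile filter took their place. The gene table pairs 34945 probe sets with 1 symbol, 932 with several, and does not list 9160. All 93 symbols of the lists are RefSeq gene symbols of GRCm38.p6. Without a named Grin1 probe set, the planned balance against Grin1 was replaced by all pairs of measured genes.

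The genotype difference was estimated by limma 3.58.1 under R 4.3.3 (lmFit, eBayes with trend) over all kept genes or probe sets, with Benjamini-Hochberg adjustment, and the fit was tested on simulated data. Intervals are at 95%. The number of arrays limits the precision. Named are all members, the 2 genes with the smallest p per list, genes past the threshold and the 2 genes most like Grin2a and Grin2b. Members, lists and this rule were chosen with earlier results of these data known. Alternatives covered normalization, an offset of 16 signal units, filters, the variance trend, weights per array, a replicate block, the mean of probe sets and leaving out each array.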

Additional observations from a re-analysis of the deposited data

How the results depend on the processing

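Over the alternatives tried, the 5 gene differences gave 84 values, and none changed sign. Grin2a was not measured with the filter at the 60th percentile. The pass of Grin3a with gene-by-gene array weights (0.67) was the only one, so that 1 Grin gene and 1 Grin probe set were called there, against 0 otherwise. That method was chosen after the data were seen, because the default method stopped before it converged. Of 102 balance values 1 changed sign, Grin2c minus Grin2d without KO replicate 3 (-0.046, with 0.19 as the highest value when another array was left out). Genes called, 8 of 12903, became 0 without the variance trend, 4 with the replicate block, 115 with array weights and 0 to 53 with 1 array left out, the 53 without KO replicate 3. Probe sets called, 6 of 27408, became 1 without the filter, 0 without the trend, 2 with the replicate block, 307 with array weights and 0 to 64 with 1 array left out. At an unadjusted p under 0.05, limma gave 965 genes, 1 of them a Grin gene, and 1694 probe sets, 2 of them of Grin genes. Whether replicate numbers pair the samples is not stated in the labels, and 3 arrays per group cannot settle it. KO and WT deviations of equal number correlated at -0.04, 0.07 and 0.13, and 2 of 3 KO samples correlated best with their own number. The highest correlation, 0.20, was between unequal numbers, KO replicate 1 and WT replicate 2. With the replicate block in limma Grin3a differed by 0.69 (adjusted p = 0.551) and 0 Grin genes passed. Homer1 missed the threshold with median centring (adjusted p = 0.109), without the trend (0.128) and with the replicate block (0.157), at differences of -1.27, -1.23 and -1.23. Probe sets near the filter level bear differences less firmly than bright ones.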

Other observations

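A few genes of the lists that the naming rule left out stood farthest from WT on KO replicate 3. They were picked after their values were seen. Src, a kinase gene whose product phosphorylates GluN2A, had log2 signals of 9.29, 9.61 and 8.43 on the KO arrays and 9.63, 9.86 and 9.83 on the WT arrays, without overlap. Nrgn, the gene of the calmodulin-binding protein neurogranin, had 12.64, 13.74 and 10.87 on the KO arrays and 12.80, 13.36 and 12.66 on the WT arrays, which overlap. Shmt1, a gene of serine and glycine conversion, had 7.56, 6.83 and 8.90 on the KO arrays and 7.13, 6.99 and 6.92 on the WT arrays, with KO replicate 2 below all WT arrays. None of these 3 genes passed in limma.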
